A study of Mus musculus with 6 samples.

Results

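The 10 genes described here encode the Rel-family subunits of the transcription factor NF-κB and proteins that restrain or modify it. They were taken by symbol from the 54532 genes of a count table of newborn mouse epidermis: the subunits Nfkb1, Nfkb2, Rel, Rela and Relb, and the inhibitors and IκB-like regulators Nfkbia, Nfkbie, Nfkbiz, Tnfaip3 and Bcl3. All 10 passed the filter on low counts, which left 16471 genes for testing. The series sequenced total RNA of 3 libraries whose genotype is given as Paxbp1 knockout and 3 given as Wildtype, called replicates 1 to 3 by the number in their titles, to see what loss of Paxbp1 does to this tissue. Newborn skin was cleared of fat and dermis, held in Dispase II overnight and peeled, and the sheet kept for RNA was the epidermis. The labels do not say in which cells or by what means Paxbp1 was deleted, which exons are missing, what strain was used, or whether a library held 1 animal, and p-values therefore speak only of library-to-library spread, which may be technical.

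As background, NF-κB proteins are dimers of Rel-family subunits. Rela, Relb and Rel carry transactivation domains, and Nfkb1 and Nfkb2 encode precursors that are cut to DNA-binding subunits. In resting cells IκB proteins such as those of Nfkbia and Nfkbie hold the dimers in the cytoplasm. Signals from receptors of the tumour necrosis factor, interleukin and Toll-like families activate the IκB kinase, IκB is destroyed and the dimers enter the nucleus. Many genes of the pathway, Nfkbia and Tnfaip3 among them, are themselves targets and form feedback loops. Tnfaip3 encodes a ubiquitin-editing enzyme that dampens the signal. Nfkbiz and Bcl3 encode nuclear IκB-like proteins that act on chromatin-bound dimers. A separate branch of the pathway runs through the kinase of Map3k14 to Nfkb2 and Relb. In skin, NF-κB is known for its part in inflammation and, through the ectodysplasin receptor Edar, in the formation of hair placodes.

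Promoter windows were available for 7 of the 10 genes (Nfkb2, Rel, Rela, Nfkbia, Nfkbie, Tnfaip3 and Bcl3) in the RefSeq table of build GRCm38.p6, each running from 250 bases before to 50 bases after a transcription start. Both strands were searched for the textbook κB consensus, the DNA element that Rel dimers bind. At least 1 window held a match for 6 of the 7 genes, against 9.55% of all 27025 genes with a window (8.46% of 32851 windows of this length). The Rela window and the second of the Tnfaip3 windows held none. When only the fixed letters of the consensus, GGGNNNNNCC, were required, all 7 genes matched, as did 53.5% of all genes. A match describes these letters and does not show binding.

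The bases before the start of 4 genes are shown because they place the match relative to the start in genes described below. They read 5′ to 3′ on the strand of the gene and end at the base before the start, and capitals mark matches to the consensus. Nfkbia lies at chr12:55492648-55492897 (minus strand), Nfkb2 at chr19:46304487-46304736 (plus strand), Rel at chr11:23770970-23771219 (minus strand) and Nfkbie at chr17:45555450-45555699 (plus strand).
Nfkbia: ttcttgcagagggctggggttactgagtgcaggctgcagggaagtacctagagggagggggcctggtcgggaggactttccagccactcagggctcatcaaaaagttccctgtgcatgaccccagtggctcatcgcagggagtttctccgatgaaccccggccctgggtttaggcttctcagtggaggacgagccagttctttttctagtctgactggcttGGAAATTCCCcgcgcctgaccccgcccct
Nfkb2: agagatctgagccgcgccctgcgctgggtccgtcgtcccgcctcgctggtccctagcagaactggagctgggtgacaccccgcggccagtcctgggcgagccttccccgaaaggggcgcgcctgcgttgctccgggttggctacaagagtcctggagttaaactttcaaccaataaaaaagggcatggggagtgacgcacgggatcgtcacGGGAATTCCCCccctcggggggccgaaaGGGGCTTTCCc
Rel: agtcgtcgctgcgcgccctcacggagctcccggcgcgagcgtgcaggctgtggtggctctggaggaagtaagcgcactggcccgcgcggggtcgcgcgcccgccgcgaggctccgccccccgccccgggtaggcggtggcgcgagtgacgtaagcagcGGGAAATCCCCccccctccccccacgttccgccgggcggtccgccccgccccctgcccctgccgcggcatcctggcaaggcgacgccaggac
Nfkbie: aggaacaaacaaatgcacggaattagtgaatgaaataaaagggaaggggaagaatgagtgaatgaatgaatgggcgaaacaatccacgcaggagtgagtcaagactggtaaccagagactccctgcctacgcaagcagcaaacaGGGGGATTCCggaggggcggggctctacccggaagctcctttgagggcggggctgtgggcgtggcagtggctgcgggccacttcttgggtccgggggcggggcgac

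In Nfkbia the match covered bases -29 to -20 from the start, and in Nfkbie bases -106 to -97. In Nfkb2 there were 3 matches, 2 of them shifted by 1 base over -39 to -29 and another at -11 to -2. In Rel there were 2 matches, also shifted by 1 base, over -92 to -82. The remaining matches are shown as shorter stretches. In Tnfaip3 (chromosome 10, minus strand) the match at bases -12 to -3 (19015413 to 19015422) read GGAAATCCCC, the same letters as 1 of the matches in Rel, and a second match stood at -125 to -116. In Bcl3 (chromosome 7, minus strand) the match lay at bases 3 to 12 after the start (19822744 to 19822753). A further match, at 46305705 to 46305714 on chromosome 19, fell in the windows of 2 inner start sites of Nfkb2, and 1 of these windows held another match at 46305459 to 46305468. The Tnfaip3 match nearest the start, the Bcl3 match and the first of these inner Nfkb2 matches are given with 10 bases on each side.
Tnfaip3: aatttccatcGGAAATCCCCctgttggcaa
Bcl3: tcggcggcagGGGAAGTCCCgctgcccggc
Nfkb2, inner start: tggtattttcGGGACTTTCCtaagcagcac

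Sequencing depth was similar in all 6 libraries, with 16315317 to 17816327 counts. Levels are CPM (counts scaled to a common library total) computed with edgeR's TMM factors, a correction for differences in RNA composition. Paxbp1 itself had 2007, 1159 and 1467 counts in the wild type group and 2370, 1127 and 1125 in the knockout group (log2 fold change 0.10 ± 0.29, adjusted p = 0.783). Counts over the whole gene do not bear out the genotype labels, so each direction below holds for a library labelled knockout relative to one labelled wild type. Replicate 1 of each group had more genes with a count (24236 and 24380) than the other libraries (22059 to 22556).

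The tissue label was checked against keratinocyte genes, and markers of other cells were summed for each library. The most abundant marker of each list, with mean CPM in wild type and knockout, was Krt1 for keratinocytes (30667 and 2721), Mrc1 for macrophages (6.44 and 6063), S100a9 for neutrophils (0.197 and 2637) and Col1a1 for fibroblasts (7.82 and 2548). For the other lists it was Pecam1 for endothelial cells (1.20 and 250.5), Epcam, which other epithelial cells express too, for Langerhans and dendritic cells (130 and 35.8), Dct for melanocytes (225 and 69.5) and Ptprc, a pan-leukocyte gene, for lymphocytes (21.4 and 521). In the wild type, Col1a1 was at 20.2, 1.16 and 2.07 CPM in replicates 1 to 3, so its mean rested mostly on replicate 1. All 15 keratinocyte genes were lower in the knockout, with summed levels of 89699 to 146968 CPM in the wild type and 5444 to 14036 CPM in the knockout. All 12 macrophage genes were higher (186 to 208 against 10474 to 19397 CPM). Of 11 neutrophil genes 7 passed the filter and were higher (2.12 to 3.22 against 3412 to 8405 CPM), and Ly6g and Retnlg had no wild type count. Genes with almost no wild type counts passed the filter through the knockout libraries alone and could not have been called lower. This holds for the 7 neutrophil genes other than Csf3r. It also holds for the macrophage gene Cd163 and the fibroblast genes Pdgfra, Lum and Dpt. Among endothelial genes Cdh5, Kdr, Tie1 and Esam were of this kind, and among Langerhans and dendritic cell genes Flt3, Zbtb46, Ccr7 and Cd209a. The numbers of genes called higher in these lists were therefore partly fixed by the filter. All 10 fibroblast genes were higher (253 to 269.7 against 4406 to 11231 CPM), as were 6 of the 7 endothelial genes that passed the filter out of 10 (4.88 to 8.18 against 201 to 368 CPM). Without Pecam1, which leukocytes also express, the endothelial sum was 4.03 to 6.55 against 30.5 to 35.6 CPM, and Emcn, which did not pass the filter, had no wild type count. Of 12 lymphocyte genes 2 were higher and 2 lower (29.2 to 48.3 against 419 to 631 CPM), with Ptprc making up most of the knockout sum and no wild type count of Ncr1. Of 8 Langerhans and dendritic cell genes 7 passed the filter, 5 were higher and 1 lower (118 to 149 against 58.9 to 76.9 CPM). The Langerhans gene Cd207 had no wild type count and 1, 2 and 5 counts in the knockout. Epcam was the gene called lower and made up most of that sum, which without it was 4.26 to 6.53 CPM in the wild type and 29.4 to 37.0 CPM in the knockout. Of 7 melanocyte genes 2 were higher and 3 lower (412 to 595 against 209 to 349 CPM). Leukocytes, fibroblasts and keratinocytes all express NF-κB genes, and in bulk tissue fewer cells of a type and less RNA per cell cannot be told apart. The part of these cells in the results that follow was not tested.

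All 10 NF-κB genes were higher in the libraries labelled knockout at an adjusted p under 0.05 (edgeR's quasi-likelihood test, Benjamini-Hochberg over all genes tested). For each of them the 3 knockout libraries lay above the 3 wild type libraries. Over all genes tested 28.7% were called higher, 25.1% were called lower, and 31.9% had all knockout libraries above all wild type libraries. The balance of calls over all genes depended on the scaling, with 4721 higher and 4139 lower here, 4151 and 5147 with upper-quartile factors, and 4198 and 4715 with library size only. The median log2 fold change of the 10 genes was 2.36, beside -0.029 for all genes tested and 2.16 for the 4721 genes called higher. The rises ran from 1.80-fold for Nfkb1 to 28.7-fold for Nfkbie.

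**Figure D1:**
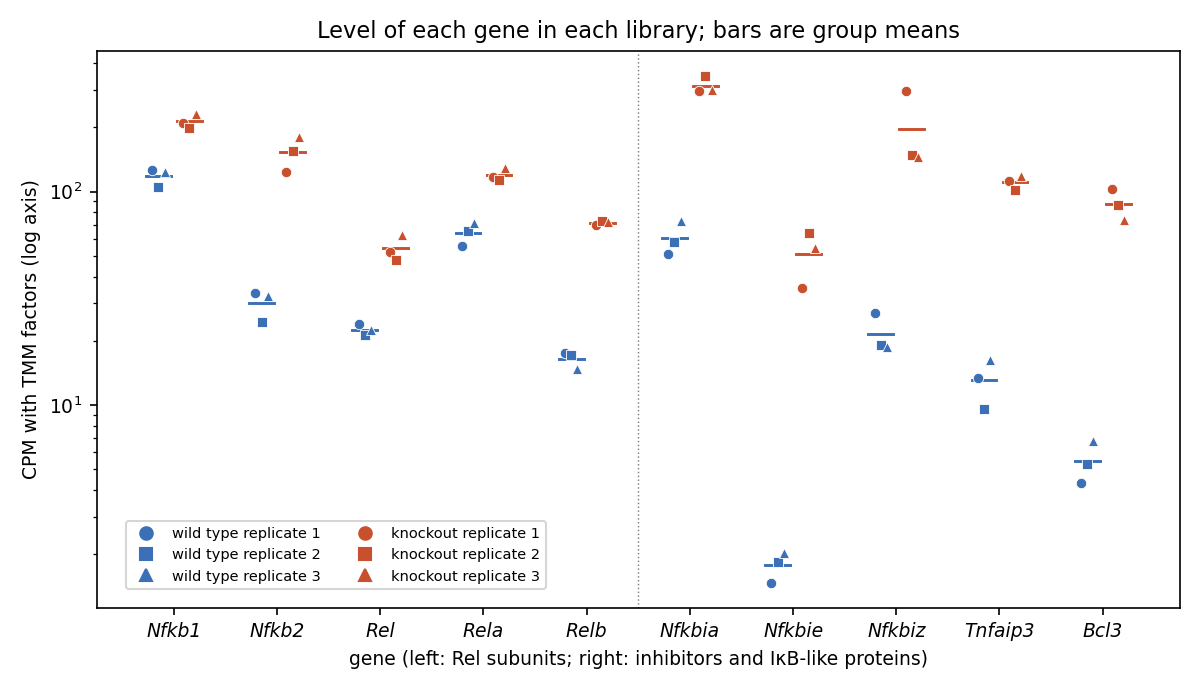
CPM with TMM factors on a log axis for the 10 genes in each of the 6 libraries (blue, wild type; orange, knockout; symbols give the replicate number; bars are group means, n = 3). The 2 groups do not overlap for any of the genes, and the gap between them is widest for Nfkbie (1.77 against 51.2 CPM on average).

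Among the subunits, Rela and Nfkb1, which form the classical NF-κB dimer, had the smallest rises. Rela (ENSMUSG00000024927, chromosome 19, 5637483 to 5648130, mm10) was at 55.5, 65.7 and 70.9 CPM in wild type replicates 1 to 3 and at 117, 113 and 129 CPM in the knockout. The knockout libraries lay close together, and the lowest was 1.60 times the highest wild type library. The log2 fold change of Rela was 0.90 ± 0.20 (SE), a 1.87-fold rise with a 95% interval of 1.38 to 2.54 (adjusted p = 0.00266). Nfkb1 (ENSMUSG00000028163, chromosome 3, 135584655 to 135691547) was at 127, 105 and 124 CPM in the wild type and at 210.1, 198 and 232 CPM in the knockout. It was the subunit gene with the most reads in both groups, and its rise was 1.80-fold (1.31 to 2.46; adjusted p = 0.00489).

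Rel encodes c-Rel, a subunit best known from lymphocytes and myeloid cells. Rel (ENSMUSG00000020275, chromosome 11, 23736847 to 23770970) was at 23.9, 21.3 and 22.5 CPM in the wild type and at 52.4, 47.6 and 62.8 CPM in the knockout. Its wild type libraries varied least of the 10 genes, with an SD that was 5.69% of the mean. The rise was 2.40-fold (1.76 to 3.28; adjusted p = 0.000341).

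Nfkb2 and Relb, the subunits of the Map3k14 branch, rose more. Nfkb2 (ENSMUSG00000025225, chromosome 19, 46304737 to 46312090) was at 33.7, 24.6 and 32.3 CPM in the wild type and at 124, 156 and 180.4 CPM in the knockout. Knockout replicate 1 was the lowest of its group, yet 3.69 times the highest wild type library. The rise of Nfkb2 was 5.08-fold (3.55 to 7.27; log2 fold change 2.34 ± 0.23, adjusted p = 1.15e-05). Relb (ENSMUSG00000002983, chromosome 7, 19606217 to 19629438) was at 17.5, 17.2 and 14.7 CPM in the wild type and at 69.9, 72.7 and 71.7 CPM in the knockout. The 3 knockout values of Relb differed by only 1.04-fold from lowest to highest, the narrowest range of the 10 genes in that group. Its rise was 4.33-fold (3.20 to 5.86; log2 fold change 2.11 ± 0.20, adjusted p = 6.89e-06). The intervals of Nfkb2 and Relb did not overlap those of Rela and Nfkb1, and that of Relb overlapped that of Rel only between 3.20 and 3.28.

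The unequal rises changed the make-up of the subunit transcripts. Levels of different genes were compared in the deposited FPKM, which divide by gene length. The summed FPKM of the 5 subunits went from 48.7 ± 2.85 in the wild type to 133 ± 14.0 in the knockout (SD, n = 3 each). Nfkb2 held 20.9%, 15.7% and 18.5% of that sum in the wild type libraries and 30.6%, 36.2% and 36.9% in the knockout libraries. Relb went from 8.56% ± 1.21 to 13.8% ± 1.17. In the other direction, Rela held 41.8%, 50.7% and 49.3% of the sum in the wild type and 35.0%, 32.0% and 32.0% in the knockout. Nfkb1 went from 19.7% ± 1.62 to 13.2% ± 0.804. For these 4 subunits the groups did not overlap. The share of Rel, 6.07% ± 0.435 and 5.41% ± 0.455, overlapped between the groups. A two-sided exact permutation test of 3 against 3 libraries cannot go below p = 0.10, and that was the p of each of the 4 shares (0.125 adjusted over the 5 shares), with 0.20 for Rel.

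**Figure D2:**
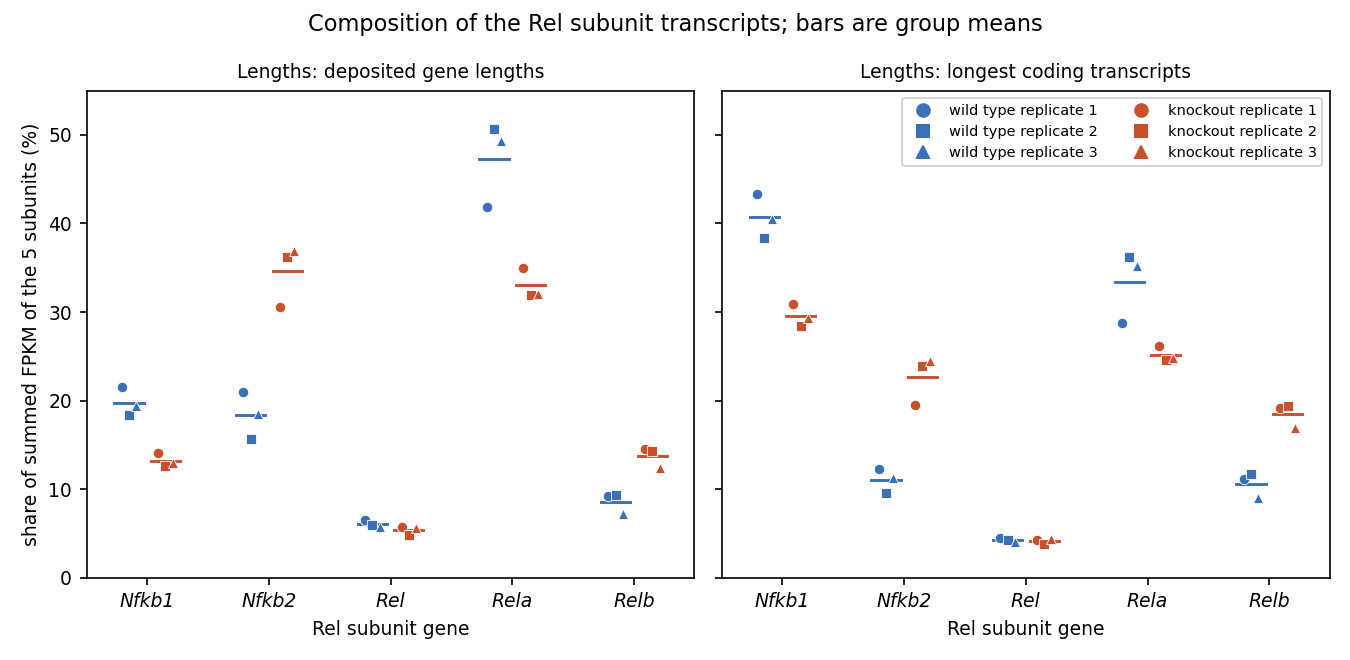
Share of each Rel subunit gene in the summed FPKM of the 5 subunits, in percent, for each library (blue, wild type; orange, knockout; bars are group means, n = 3), with the deposited gene lengths on the left and the longest coding transcripts on the right. Nfkb2 and Relb stand higher and Rela and Nfkb1 lower in the knockout with both lengths, while the leading wild type subunit is Rela on the left and Nfkb1 on the right.

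The order of the subunits depended on the length used. The deposited length of Nfkb1, 12061 bases, is 2.93 times its longest coding transcript in GENCODE vM21 (4117 bases), which lowers its FPKM. With transcript lengths Nfkb1 held 40.7% ± 2.51 of the wild type sum and Rela 33.4% ± 4.03, whereas with deposited lengths Rela led. The deposited length of Nfkb2, 3289 bases, is shorter than its longest coding transcript (3846 bases), and its deposited coordinates differ from GENCODE vM21. With transcript lengths the Nfkb2 share was 11.1% ± 1.39 in the wild type and 22.6% ± 2.69 in the knockout, below the values with deposited lengths in both groups. The directions of all 5 shares were the same with both lengths. The ratio of Nfkb2 plus Relb to Nfkb1, Rel and Rela, a quantity added after the values were seen, was 1.35 higher in the knockout on the log2 scale with deposited lengths and 1.34 higher with transcript lengths. It was -1.21, -1.59 and -1.53 in the wild type libraries and -0.28, 0.033 and -0.036 in the knockout libraries (exact permutation p = 0.10).

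Among the inhibitors, Nfkbia, which encodes IκBα, was the most abundant of the 10 genes per length in both groups. Nfkbia (ENSMUSG00000021025, chromosome 12, 55489410 to 55492647) was at 51.0, 58.1 and 73.1 CPM in the wild type and at 295, 348 and 299 CPM in the knockout. The lowest knockout library was 4.04 times the highest wild type library, and the mean FPKM went from 36.9 ± 7.14 to 194 ± 17.2. The rise of Nfkbia was 5.17-fold (3.61 to 7.40; log2 fold change 2.37 ± 0.23, adjusted p = 1.06e-05), close to that of Nfkb2.

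Nfkbie, which encodes IκBε, had the largest rise of the 10 genes and the lowest wild type level. Nfkbie (ENSMUSG00000023947, chromosome 17, 45555703 to 45563169) had 27, 30 and 38 counts in the wild type, or 1.47, 1.83 and 2.02 CPM, and 35.3, 64.0 and 54.3 CPM in the knockout. Knockout replicate 1 stood at 0.596 of the mean of the other knockout libraries, and was 17.5 times the highest wild type library. The rise was 28.7-fold (17.9 to 46.1; log2 fold change 4.84 ± 0.31, adjusted p = 4.92e-07). Of all genes tested, 5.31% had a higher log2 fold change.

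Tnfaip3, the gene of the ubiquitin-editing inhibitor, was at 13.4, 9.60 and 16.3 CPM in the wild type and at 112, 102 and 118 CPM in the knockout. Its wild type libraries were the most spread of the 10 genes (SD 25.6% of the mean) and its knockout libraries among the tightest (7.67%). Tnfaip3 (ENSMUSG00000019850, chromosome 10, 19000910 to 19015657) rose 8.45-fold (5.79 to 12.3; log2 fold change 3.08 ± 0.25, adjusted p = 2.25e-06).

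The genes of the nuclear IκB-like proteins rose as well. Nfkbiz encodes IκBζ, which acts in keratinocytes downstream of interleukin-17 and in macrophages downstream of Toll-like receptors. Nfkbiz (ENSMUSG00000035356, chromosome 16, 55811375 to 55838899) was at 26.9, 19.2 and 18.8 CPM in the wild type and at 296, 148 and 145 CPM in the knockout. Replicate 1 was the highest library in both groups, and in the knockout it stood at 2.02 times the mean of the other libraries, the largest departure among the 10 genes. The rise was 9.08-fold (5.49 to 15.01; log2 fold change 3.18 ± 0.33, adjusted p = 1.44e-05). Without knockout replicate 1 the log2 fold change was 2.77, and it was still called.

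Bcl3, named from a translocation in B-cell leukaemia, encodes a partner of the homodimers of the Nfkb1 and Nfkb2 products. Bcl3 (ENSMUSG00000053175, chromosome 7, 19808462 to 19822770) was at 4.31, 5.32 and 6.79 CPM in the wild type and at 103, 86.3 and 73.6 CPM in the knockout. The lowest knockout library was 10.8 times the highest wild type library. The rise was 15.98-fold (10.7 to 23.8; log2 fold change 4.00 ± 0.26, adjusted p = 5.76e-07). Strand use in the counting is not given in the sources used here, so reads of Bcl3 and of its antisense genes Gm16174 and Gm16175 cannot be told apart, and these had at most 24 and 19 counts in a library. Nfkb2 shares only its last bases with the end of the neighbouring gene Psd.

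**Figure D3:**
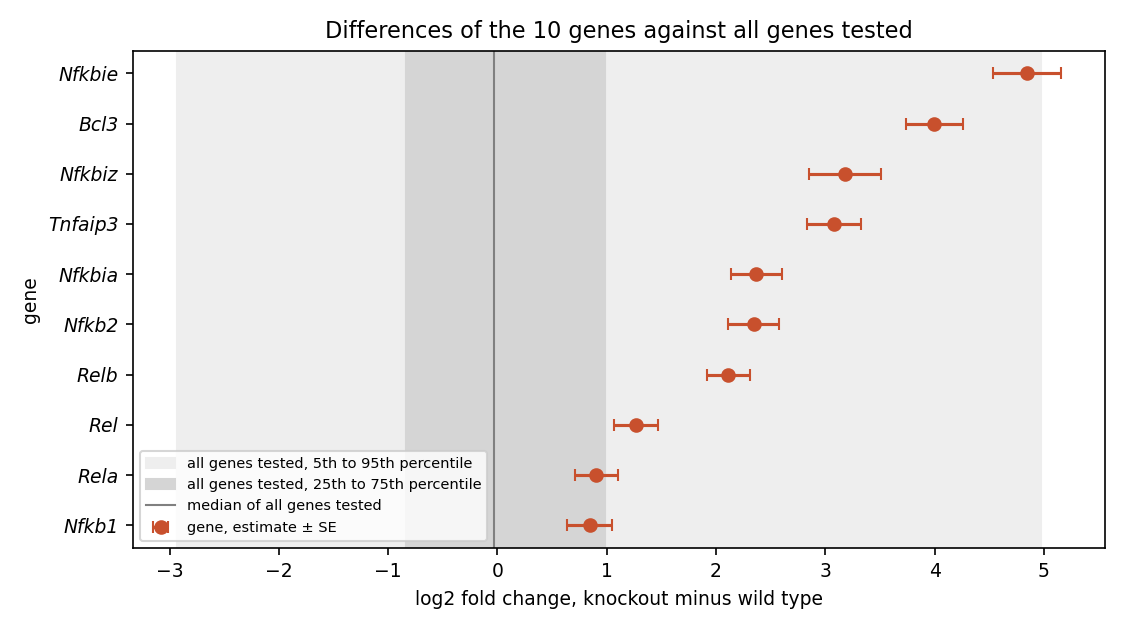
Log2 fold change of each gene, knockout minus wild type, with its SE (points and bars, 3 libraries per group), over grey bands for the central parts of all 16471 genes tested. The 10 genes run from 0.85 for Nfkb1 to 4.84 for Nfkbie, and Nfkb2 (2.34) and Nfkbia (2.37) lie next to each other where the subunits and the regulators meet.

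Ranked by size, the rises formed a series in which every neighbouring pair had overlapping intervals: Nfkb1, Rela, Rel, Relb, Nfkb2, Nfkbia, Tnfaip3, Nfkbiz, Bcl3 and Nfkbie. By their estimates the 5 regulators rose more than the subunits, but Nfkbia and Nfkb2 lay close together and changed order in 4 of 17 alternatives, among them the fit without both libraries numbered 1 (2.29 for Nfkbia and 2.55 for Nfkb2 on the log2 scale). The intervals of Nfkbia, Tnfaip3 and Nfkbiz overlapped those of Relb and Nfkb2. Among genes called higher, 88.1% had a larger rise than Nfkb1, 85.7% a larger rise than Rela and 18.5% a larger rise than Nfkbie. The rises of Nfkb1 and Rela were thus small for a gene called higher in this comparison, and that of Nfkbie was large.

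Transcripts of the regulators rose relative to those of the subunits. The summed FPKM of the 5 regulators was 39.4, 43.5 and 53.7 in the wild type libraries and 308, 312 and 279.6 in the knockout libraries. It stood near the subunit sum in the wild type (45.5 ± 7.37 against 48.7 ± 2.85) and above it in the knockout (299.8 ± 17.6 against 133 ± 14.0). With transcript lengths the regulator sum was below the subunit sum in the wild type (49.2 ± 7.77 against 69.0 ± 3.43) and above it in the knockout (338 ± 20.2 against 175 ± 15.6). Nfkbia alone made up most of the regulator sum in both groups, with a mean FPKM of 36.9 in the wild type and 194 in the knockout (deposited lengths). The log2 ratio of Nfkbia to the subunit sum was -0.63, -0.40 and -0.22 in the wild type and 0.57, 0.73 and 0.32 in the knockout, a difference of 0.96. For Nfkbie the difference in this ratio was 3.39, for Bcl3 2.59, for Nfkbiz 1.69 and for Tnfaip3 1.69. The groups did not overlap for any of the 5 ratios, and each had an exact permutation p of 0.10, the smallest possible (0.10 adjusted over the 5 ratios).

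Relb and Bcl3 lie on the same stretch of chromosome 7, from 19606217 to 19822770 (mm10), with 13 other genes of the count table between them and 2, the antisense genes named above, inside Bcl3. Of these 15 genes, 8 passed the filter, 2 were higher, 4 were lower and 2 were not called. Apoe, which encodes apolipoprotein E and is abundant in macrophages, rose by 2.82 on the log2 scale, and Clptm1 by 0.75. The genes Bcam, a laminin receptor of basal epithelial cells, Gm45114, Apoc1 and Cblc were lower, with log2 fold changes of -3.71, -2.94, -1.86 and -1.46. The calls between the NF-κB genes thus ran in both directions.

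**Figure D4:**
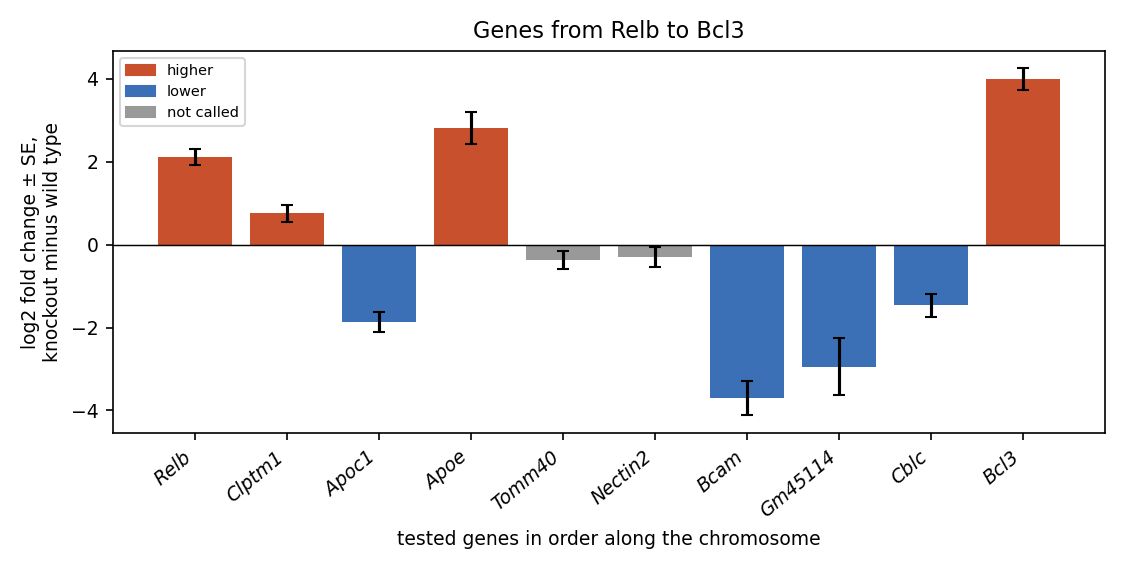
Log2 fold change with its SE, knockout minus wild type, for the 10 tested genes from Relb to Bcl3 in their order along chromosome 7 (orange, called higher; blue, called lower; grey, not called). Bars in both directions stand between the rises of Relb (2.11) and Bcl3 (4.00).

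The rest of the pathway was described with lists of 107 other genes sorted by role, of which 101 passed the filter. Of these 70 were higher, 9 lower and 22 not called, against 28.7% higher and 25.1% lower over all genes tested. Pathway genes that passed the filter through the knockout libraries alone, many of them target genes, could not have been called lower. The median log2 fold change of the 101 genes was 1.82. List medians were highest for target genes, ligands and receptors and lowest for the list of kinases and their binding partners.

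Of 13 ligand genes 9 passed the filter, 6 were higher and 1 was lower (median 3.43). Il1b, the gene of interleukin-1β, went from 1.07 ± 0.412 to 175 ± 86.6 CPM. Tnf, the gene of tumour necrosis factor, went from 0.629 ± 0.353 to 19.6 ± 1.501 CPM, and Ltb, which encodes lymphotoxin β and acts on the Map3k14 branch, from 1.02 ± 0.115 to 12.8 ± 6.80 CPM. Of 15 receptor genes 14 passed the filter, 11 were higher and 3 lower (median 2.28). Tnfrsf1b, a tumour necrosis factor receptor of leukocytes, went from 2.98 ± 0.154 to 316 ± 94.3 CPM. Tnfrsf11a, the gene of RANK (log2 fold change 4.75), and Il1rl1, the interleukin-33 receptor gene (6.39), also rose. Il1rl1 had only 1, 7 and 3 wild type counts. Like Cd40 and Il18r1 it passed the filter through the knockout libraries alone, so the receptor count was partly fixed by the filter.

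Among the genes called lower were some of ectodysplasin signalling, which drives NF-κB in hair placodes. The ligand gene Eda fell from 10.3 ± 1.49 to 1.55 ± 0.833 CPM (adjusted p = 0.000175). The adaptor gene Edaradd fell from 48.8 ± 6.58 to 3.30 ± 2.55 CPM (adjusted p = 4.21e-05). The receptor gene Edar, named here after its values were seen, had 1647, 1060 and 1584 counts in the wild type and 15, 2 and 1 in the knockout (log2 fold change -7.75 ± 0.56, adjusted p = 1.06e-06). Tnfrsf19, another receptor of this family that is expressed in hair follicles, fell by 5.37 on the log2 scale. Eda2r, the receptor gene for the A2 form of ectodysplasin, also named after its values were seen, was higher (1.63 ± 0.627 to 4.64 ± 1.77 CPM, log2 fold change 1.499 ± 0.46, adjusted p = 0.0172 in edgeR). Keratinocyte markers were also lower in these libraries, in 15 of 15 genes, with the summed levels given above.

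The list of 26 adaptors and ubiquitin ligases also held the kinase genes Ripk1, Irak1 and Irak4. Of its genes 14 were higher and 4 lower (median 0.84). Card9, a myeloid signalling adaptor, went from 2.92 ± 0.759 to 90.5 ± 5.18 CPM. Birc3, a ubiquitin ligase that is also a target of the pathway, went from 32.4 ± 3.99 to 184 ± 12.6 CPM, and Irak3, an inhibitor of interleukin-1 and Toll-like receptor signals, from 3.02 ± 0.361 to 26.2 ± 6.23 CPM. Of 11 genes of kinases and their binding partners (Ikbkg, Tab1, Tab2 and Tab3), 5 were higher and 1 lower (median 0.41). Map3k14, the kinase gene of the branch that ends in Nfkb2 and Relb, rose from 5.16 ± 1.45 to 32.1 ± 6.57 CPM (adjusted p = 2.21e-05). Map3k8 (log2 fold change 2.24) and Tbk1 (1.48) rose, and Tab3 fell (-0.69 ± 0.19, adjusted p = 0.0107). Leaving out wild type replicate 2 ended the call of Tab3 (adjusted p = 0.0525 in edgeR).

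Of 14 other inhibitors and deubiquitinases 8 were higher and 6 were not called (median 0.58). Zc3h12a, which encodes an RNase that degrades cytokine messages, rose by 2.44 on the log2 scale, Nfkbid, another nuclear IκB-like gene, by 3.04, and N4bp1 by 2.83. The classical inhibitor gene Nfkbib, which encodes IκBβ, had a log2 fold change of 0.024 ± 0.22 and was not called (adjusted p = 0.935).

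Of 28 target genes 27 passed the filter and 26 were higher (median 6.62). The median was 6.43 with the 4 genes that had no wild type count set to the fold at a floor of 3 counts over the group. Those 4 genes (Cxcl5, Il6, Csf2 and Saa3) passed the filter through the knockout libraries alone. So did others, among them Ccl2, Ccl20, Nos2, Lcn2, Csf3 and Ptx3, with 2 or 3 wild type counts. Such genes could not have been called lower, so the count of 26 was partly fixed by the filter. The monocyte chemokine gene Ccl2 reached 282 ± 47.5 CPM in the knockout against only 2 counts in the whole wild type group (ratio 7477, exact 95% counting interval 2070 to 61749). Lcn2, an antimicrobial iron-sequestering protein gene, reached 254 ± 94.4 CPM against 3 counts (ratio 4464, 1527 to 21650). The neutrophil chemokine gene Cxcl2 went from 0.116 ± 0.101 to 92.4 ± 15.9 CPM. These intervals cover counting error only. Macrophage and neutrophil markers, which are expressed by cells that also make many of these targets, were also higher (12 of 12 genes and 7 of 11), and their part was not tested.

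**Figure D5:**
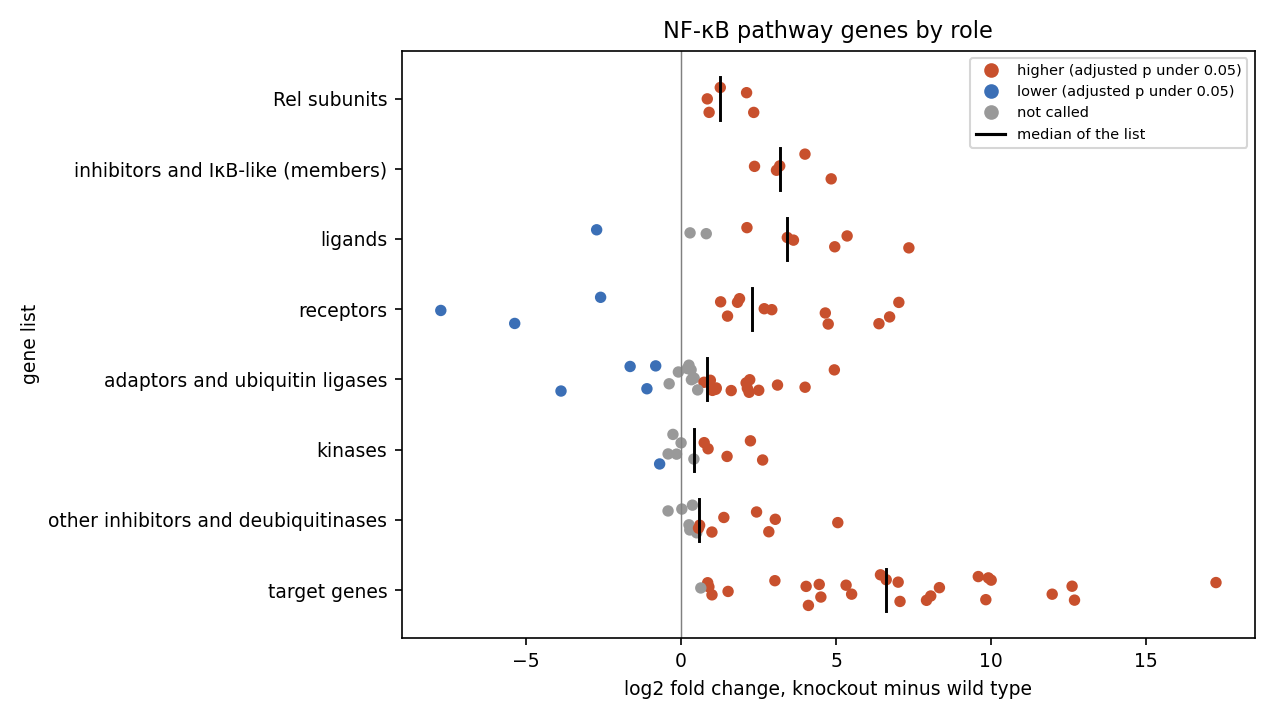
Log2 fold change, knockout minus wild type, of every tested gene in 8 lists by role (orange, called higher; blue, called lower; grey, not called; black lines, list medians). Target genes reach furthest to the right (median 6.62), and the receptor list holds both strong rises and falls. The list labelled kinases, which also holds binding partners of kinases, is nearest to 0 (median 0.41).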

How the data were processed

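RNA-seq of 6 epidermis libraries was used (3 labelled knockout, 3 wild type; 16315317 to 17816327 counts each). Per the submitters' processing notes, reads were processed with HISAT2 2.0.5 and featureCounts 1.5.0-p3 on mm10; for parameters, strand setting and annotation release, each is not given in the sources used here. Whole-number counts per gene, and FPKM for the same genes, were deposited by the authors. Within each library FPKM is the count over the deposited gene length times 1 constant, so shares and ratios of FPKM rest on the same counts.

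Counts were tested with edgeR 4.0.16 in R 4.3.3 (TMM factors, expression filter with minimum count 10 and total 15, robust quasi-likelihood test, genotype as the only term), with Benjamini-Hochberg adjustment over all 16471 genes and calls at 0.05. The SE is the absolute log2 fold change over the root of the F statistic, and 95% intervals of folds use it with the test's degrees of freedom. For genes with very few wild type counts an exact counting interval of the ratio is given. Shares and ratios were compared with two-sided exact permutation tests. The code was tested on simulated data. DESeq2 1.42.0 and limma 3.58.1 served as alternatives, with other scalings, filters, FPKM tests on log2(FPKM + 1) and log2(FPKM + 0.1), a replicate block, and libraries left out.

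Members, lists and the tests were chosen with earlier results of these data known. From each pathway list the 3 called genes with the smallest adjusted p in the main direction and 1 in the other direction are named. Other genes named are markers, neighbours of Relb and Bcl3, and Edar, Eda2r and Nfkbib, chosen after their values were seen. Transcript lengths come from GENCODE vM21, promoters from RefSeq (GRCm38.p6).

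Replicate numbers come from the titles. Deviations of log2(CPM + 1) from the group means correlated across genes at 0.29, 0.45 and 0.21 between same-numbered libraries and at -0.43 to 0.10 otherwise, so the numbers were treated as pairing the libraries in the alternative with a replicate block. What a number stands for is not in the labels.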

Additional observations from a re-analysis of the deposited data

How the results depend on the processing

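All 10 genes were called higher in each of 17 alternatives: other scalings (RLE, upper-quartile, library size), filters, DESeq2, limma-voom, limma-trend on FPKM, a replicate block, each library left out and both libraries numbered 1 left out. The largest adjusted p was 0.0396, for Nfkb1 without wild type replicate 2. Log2 fold changes ranged from 0.65 to 0.90 for Nfkb1, from 0.71 to 1.00 for Rela and from 3.46 to 5.06 for Nfkbie, whose low end came from log2(FPKM + 1). The median over all genes, -0.029, became -0.22 with upper-quartile and -0.18 with library-size scaling. Pathway genes called higher ranged from 66 to 74 and lower from 8 to 12; with the replicate block they were 74 and 9, and the block ended no call of a gene named by the rule. All 11 shares and ratios kept their direction in their 10 alternatives. The Nfkb2 share rose by 11.6 percentage points with transcript lengths, against 16.2 with deposited lengths. Among the 10 genes, the 22 pathway genes named by the rule and Paxbp1, only Paxbp1, which was not called, changed sign. The log2 fold change of Paxbp1 was -0.078 with upper-quartile and -0.024 with library-size scaling. It was -0.066 without both libraries numbered 1, and -0.25 to 0.33 with 1 library left out. Edar, Eda2r and Nfkbib were not put through the alternatives. With 3 libraries a group, small differences could not be detected.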
